A study of Arabidopsis thaliana with 18 samples.

Results

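The genes described are the class II homeodomain-leucine zipper (HD-ZIP II) factors known from shade avoidance, ATHB2 (AT4G16780), ATHB4 (AT2G44910), HAT1 (AT4G17460), HAT2 (AT5G47370) and HAT3 (AT3G60390). They were taken by locus identifier, with earlier results of these data known, and are 5 of the 33602 rows of the expression table. RNA was sequenced from Arabidopsis thaliana seedlings of the Columbia strain at day 7. The 6 groups, with 3 libraries each, were a double mutant labelled BBX18-/-BBX23-/- at 29 °C and at 22 °C, a mutant labelled PIF4-/- at 29 °C and at 22 °C, and the wild type at 29 °C and at 22 °C. The series asks how BBX18 and BBX23, which belong to the B-box zinc finger family, act in hypocotyl growth at elevated temperature, a response that the helix-loop-helix factor PIF4 promotes. The sources used here give neither the alleles, the time spent at 29 °C nor the hour of collection, and do not say whether the replicates of a group are separate cultures. P-values below therefore measure the spread between these libraries, which may be technical.

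HD-ZIP II proteins bind DNA as dimers and mostly repress transcription. In plants shaded by neighbours, loss of active phytochrome lets PIF factors accumulate, and several HD-ZIP II genes are then induced within a short time, with ATHB2 the classical example. ATHB2 and HAT2 lengthen the hypocotyl when overexpressed, HAT2 and other members respond to auxin, HAT1 acts with brassinosteroid signalling, and HAT3 and ATHB4 act together in leaf polarity beside the HD-ZIP III factors.

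All 5 genes have 4 exons and 3 introns in the TAIR10.1 annotation and overlap no other gene. ATHB2 lies at chr4:9449114-9450905 on the plus strand, ATHB4 at chr2:18517656-18519731 on the minus strand, HAT1 at chr4:9739518-9741234 on the plus strand, HAT2 at chr5:19216271-19218007 on the minus strand and HAT3 at chr3:22320580-22322661 on the minus strand. None has a copy with at least 90% identity over 50% of its transcript. HAT1 and HAT2 are the closest pair, with 73.1% identical bases over their coding sequences, followed by ATHB4 and HAT3 with 69.2%, and ATHB2 shares 57.3% to 64.1% with the others.

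The sequence before each gene was searched for the letters that PIF factors bind, the G-box CACGTG and the PBE-box CACATG, for CAATGATTG, the site that HD-ZIP II proteins themselves prefer, and for CAATAATTG, the form that HD-ZIP I proteins prefer, each on both strands. Within 250 bases before the annotated start, 0 of the 5 genes held a G-box, 1 held a PBE-box, 0 held the HD-ZIP II site and 0 the HD-ZIP I site. The shares were 6.5%, 11.1%, 0.3% and 0.7% of 27443 windows of that length before the protein-coding genes of the nuclear chromosomes. Within 1000 bases the counts were 0, 3, 1 and 1 of 5, against 14.8%, 37.7%, 1.2% and 2.3% of windows. ATHB4 held none of the 4 motifs. The matches beyond 250 bases are printed with 20 bases on each side, 5′ to 3′ along the strand of the gene, with the motif in capitals; CATGTG is the PBE-box read on the other strand. The sequences and coordinates are RefSeq's TAIR10.1, with the build behind the expression values not given in the sources used here.

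ATHB2, HD-ZIP I site 477 bases upstream, chr4:9448617-9448665, plus strand: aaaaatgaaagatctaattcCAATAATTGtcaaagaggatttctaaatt
HAT1, PBE-box 966 bases upstream, chr4:9738532-9738577, plus strand: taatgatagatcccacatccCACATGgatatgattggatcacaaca
HAT1, PBE-box 905 bases upstream, chr4:9738593-9738638, plus strand: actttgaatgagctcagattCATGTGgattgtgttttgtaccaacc
HAT1, HD-ZIP II site 738 bases upstream, chr4:9738760-9738808, plus strand: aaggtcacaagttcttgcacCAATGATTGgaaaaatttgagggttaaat
HAT2, PBE-box 926 bases upstream, chr5:19218908-19218953, minus strand: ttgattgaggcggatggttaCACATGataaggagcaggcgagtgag
HAT2, PBE-box 863 bases upstream, chr5:19218845-19218890, minus strand: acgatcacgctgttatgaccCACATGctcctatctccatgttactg
HAT3, PBE-box 277 bases upstream, chr3:22322913-22322958, minus strand: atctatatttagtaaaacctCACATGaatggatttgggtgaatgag

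The 250 bases before ATHB2, the gene with the largest differences below, and before HAT2, the one with a match that near its start (capitals), follow. A match describes these letters only.

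ATHB2, chr4:9448864-9449113, plus strand: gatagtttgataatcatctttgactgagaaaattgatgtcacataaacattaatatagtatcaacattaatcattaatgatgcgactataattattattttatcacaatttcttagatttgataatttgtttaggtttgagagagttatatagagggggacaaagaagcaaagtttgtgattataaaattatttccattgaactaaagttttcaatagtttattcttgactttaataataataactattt
HAT2, chr5:19218008-19218257, minus strand: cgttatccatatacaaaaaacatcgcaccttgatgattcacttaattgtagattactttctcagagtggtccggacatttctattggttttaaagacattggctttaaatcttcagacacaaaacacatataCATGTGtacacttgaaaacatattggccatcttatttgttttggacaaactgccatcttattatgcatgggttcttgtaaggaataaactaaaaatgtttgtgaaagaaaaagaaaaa

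Expression is given as FPKM, which scales the fragments of a gene by transcript length and library size and so allows levels of different genes to be set side by side. All 5 genes reached 1 FPKM in all 18 libraries. HAT1 had the highest mean over the 18 libraries (23.8 FPKM), followed by HAT2 (18.3), HAT3 (10.8), ATHB2 (9.11) and ATHB4 (2.11). ATHB2 varied most, with its highest library 8.05 times its lowest, against 3.02 times for ATHB4 and 2.90 times for HAT1. The table holds no read counts. Steps between its lowest values gave roughly 15.4 to 26.2 M reads per library, with 60.1% to 73.4% of those values within 0.2 of a whole number of reads. Evenly spread values would in part lie that near as well. On this approximate scale ATHB4 rested on 37 to 98 reads per library and HAT1 on 343 to 1054.

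Over the whole series, summed FPKM ran from 744698 to 1162160 per library and size factors from 0.963 to 1.04. Markers of shoots (4 of 4), roots (4 of 6) and vascular tissue (3 of 4) reached 1 FPKM in all libraries of every group, and the summed seed storage markers stayed at or under 1.49 FPKM, with SESA1 at 0 in all 18. PIF4 averaged 9.32 ± 1.61 FPKM in PIF4-/- and 17.4 ± 1.72 FPKM in the wild type at 29 °C (SD, n = 3 each). BBX18 stood at 7.12, 51.3 and 26.1 FPKM in replicates 1, 2 and 3 of BBX18-/-BBX23-/- at 29 °C, against 9.43, 64.3 and 29.9 FPKM in the wild type, and at 20.9, 16.6 and 16.4 FPKM at 22 °C, against 30.4, 28.5 and 27.7 FPKM. It was thus lower in the double mutant in every same-numbered pair, without overlap of the groups at 22 °C, but did not pass the test at either temperature (-0.29 ± 0.71 and -0.66 ± 0.71 on the log2(FPKM + 1) scale, adjusted p = 1 by limma). At 22 °C the same-numbered libraries of these groups did not pair by the correlation rule given below. BBX23 is listed at 0 in every library and checks nothing. In whole seedlings, fewer cells of a type and less RNA per cell cannot be told apart.

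At 29 °C against 22 °C, ATHB2 stood higher on average in all 3 genotypes and HAT1 lower, but no gene of the 5 passed the test in any genotype. In BBX18-/-BBX23-/-, ATHB2 stood at 24.1, 6.32 and 13.6 FPKM in replicates 1, 2 and 3 at 29 °C, against 3.25, 5.82 and 9.05 FPKM at 22 °C. In PIF4-/- it stood at 11.8, 7.05 and 8.13 FPKM at 29 °C, against 2.99, 3.75 and 4.0 FPKM at 22 °C. In the wild type it stood at 23.8, 4.05 and 15.2 FPKM at 29 °C, against 3.24, 7.88 and 9.87 FPKM at 22 °C. The libraries of the temperatures did not overlap in PIF4-/-, where the level of every 29 °C library was above that of every 22 °C library, and overlapped in the other genotypes through replicate 2 at 29 °C, the lowest warm library of each genotype. The share of all tested genes without overlap in PIF4-/- was not determined, so the lack of overlap is a description only.

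Differences were tested on the log2(FPKM + 1) scale with limma over the 19116 genes that reached 1 FPKM in at least 3 libraries, with Benjamini-Hochberg adjustment at 0.05, and errors of differences are standard errors. The difference of ATHB2 at 29 °C from 22 °C was 1.07 ± 0.53 in BBX18-/-BBX23-/- (95% interval -0.05 to 2.19, adjusted p = 0.205), 1.1 ± 0.53 in PIF4-/- (-0.01 to 2.22, adjusted p = 0.194) and 0.77 ± 0.53 in the wild type (-0.35 to 1.89, adjusted p = 0.383). Of the 5 genes, 0 passed in each genotype, and 0 had an unadjusted p under 0.05, while 13.6% of all tested genes passed in BBX18-/-BBX23-/-, 13.2% in PIF4-/- and 14.2% in the wild type. Fitted on the PIF4-/- libraries alone, the same difference of ATHB2 had an adjusted p of 0.0230, in a fit where 1096 of the 19116 tested genes passed. Without the 3 replicate-2 libraries at 29 °C, an alternative chosen after seeing the data, ATHB2 passed in BBX18-/-BBX23-/- (1.53, adjusted p = 0.0275) and in the wild type (1.44, adjusted p = 0.0350). Without the 3 replicate-1 libraries at 29 °C, the highest warm libraries of ATHB2 in each genotype, it passed in neither. With the replicate number within temperature added to the fit, which takes the differences between numbers out of the error, ATHB2 passed in BBX18-/-BBX23-/-, PIF4-/- and the wild type (adjusted p = 0.0101, 0.00868 and 0.0482), and HAT1 in the wild type (-0.49, adjusted p = 0.0118). In that fit 4786, 4621 and 4731 of the 19116 tested genes passed in the 3 genotypes, in the same order. The standard error of ATHB2 fell from 0.53 to 0.26 in it. The numbers are separate for each temperature, so the spread between them belongs to the error of a temperature difference. The p-values of that fit can therefore be too small for this difference. Shoot markers moved with temperature, since LHCB1.1 and RBCS1A, 2 of the 4, fell in all 3 genotypes and the summed level of the 4 ran from 11680 to 21440 FPKM at 29 °C and from 35640 to 55810 FPKM at 22 °C; their part in the differences above was not tested.

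**Figure D1:**
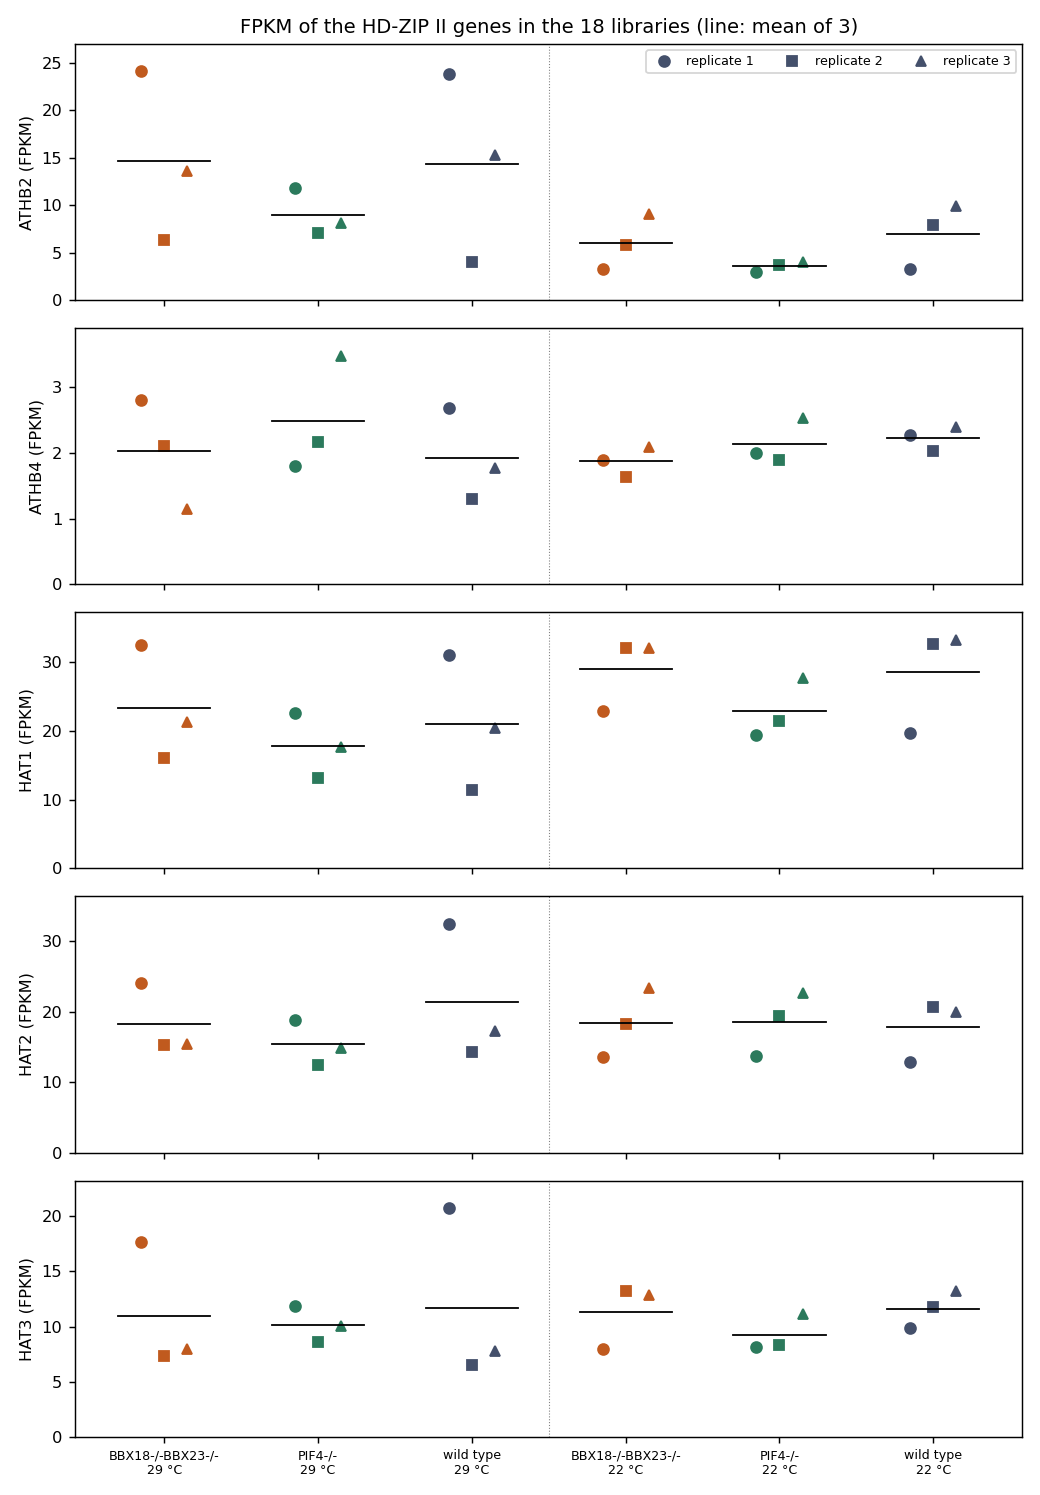
FPKM (vertical axis) of ATHB2, ATHB4, HAT1, HAT2 and HAT3 in each of the 18 libraries, with the groups along the horizontal axis, 29 °C left of 22 °C, the shape of a point giving its replicate number and the line the mean of 3. Replicate 1 is the highest library of ATHB2, HAT1, HAT2 and HAT3 in every 29 °C group and the lowest in every 22 °C group. The share of all tested genes with that order was not determined.

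HAT1 showed the opposite sign. Its level was 32.5, 16.1 and 21.3 FPKM in BBX18-/-BBX23-/- replicates 1, 2 and 3 at 29 °C, against 22.9, 32.1 and 32.1 FPKM at 22 °C. In PIF4-/- it was 22.6, 13.2 and 17.7 FPKM at 29 °C, against 19.4, 21.5 and 27.7 FPKM at 22 °C. In the wild type it was 31.0, 11.5 and 20.5 FPKM at 29 °C, against 19.7, 32.7 and 33.3 FPKM at 22 °C. The libraries of both temperatures overlapped in every genotype, and the differences were -0.34 ± 0.32, -0.36 ± 0.32 and -0.49 ± 0.32 in BBX18-/-BBX23-/-, PIF4-/- and the wild type, with adjusted p from 0.351 to 0.537.

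For HAT2, HAT3 and ATHB4 the averages of the temperatures lay close together and their libraries overlapped. HAT2 averaged 18.2 ± 5.03 FPKM at 29 °C and 18.3 ± 4.89 FPKM at 22 °C in BBX18-/-BBX23-/-, 15.4 ± 3.21 FPKM at 29 °C and 18.6 ± 4.50 FPKM at 22 °C in PIF4-/-. In the wild type it averaged 21.3 ± 9.74 FPKM at 29 °C and 17.8 ± 4.28 FPKM at 22 °C (SD, n = 3 each). HAT3 averaged 11 ± 5.78 FPKM at 29 °C and 11.4 ± 2.91 FPKM at 22 °C in BBX18-/-BBX23-/-, 10.2 ± 1.61 FPKM at 29 °C and 9.19 ± 1.69 FPKM at 22 °C in PIF4-/-. In the wild type it averaged 11.7 ± 7.89 FPKM at 29 °C and 11.6 ± 1.71 FPKM at 22 °C. ATHB4 kept between 1.15 and 3.48 FPKM in all 18 libraries. These averages hide wide spreads: HAT2 in the wild type stood at 32.4, 14.3 and 17.2 FPKM in replicates 1, 2 and 3 at 29 °C, and HAT3 at 20.8, 6.47 and 7.82 FPKM. The 95% interval of the wild-type difference at 29 °C from 22 °C was -0.43 to 0.81 for HAT2, -0.89 to 0.59 for HAT3 and -0.63 to 0.29 for ATHB4, so these libraries leave room for changes inside those bounds.

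The mutants were then compared with the wild type at each temperature, and no member passed the test in either mutant. In BBX18-/-BBX23-/- against the wild type, 0 of 5 genes passed at 29 °C and 0 of 5 at 22 °C, none of them with an unadjusted p under 0.05 by limma, while 0.0157% of all tested genes passed at 29 °C and 0.0262% at 22 °C. For ATHB2 the difference was 0.13 ± 0.53 at 29 °C (95% interval -0.99 to 1.25) and -0.16 ± 0.53 at 22 °C (-1.28 to 0.95). For the other 4 genes the differences ran from -0.17 for ATHB4 at 22 °C to 0.19 for HAT1 at 29 °C, each with an interval that includes 0. Between same-numbered libraries, HAT1 stood higher in 3 of 3 pairs at 29 °C and ATHB4 lower in 3 of 3 pairs at 22 °C. At 22 °C the same-numbered libraries of these groups did not pair by the correlation rule given below. The share of all tested genes that differed one way in 3 of 3 pairs was not determined.

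In PIF4-/- against the wild type, again 0 of 5 passed at 29 °C and 0 at 22 °C, where 0.136% and 0.0209% of all tested genes passed, and 0 had an unadjusted p under 0.05 by limma. ATHB2 at 22 °C stood at 2.99, 3.75 and 4.0 FPKM in PIF4-/- replicates 1, 2 and 3, against 3.24, 7.88 and 9.87 FPKM in the wild type. It was thus lower in PIF4-/- in 3 of 3 same-numbered pairs, by -0.70 ± 0.53 on average (95% interval -1.82 to 0.42, adjusted p = 0.988). At 29 °C the difference was -0.37 ± 0.53 (-1.49 to 0.75, adjusted p = 1), and it turned to 0.11 without wild-type replicate 1. HAT2 differed by -0.38 ± 0.29 at 29 °C and 0.05 ± 0.29 at 22 °C. HAT3 differed by -0.02 ± 0.35 at 29 °C and -0.31 ± 0.35 at 22 °C. HAT1 differed by -0.15 ± 0.32 at 29 °C and -0.29 ± 0.32 at 22 °C. HAT1 and HAT3 were also lower in 3 of 3 pairs at 22 °C, and HAT2 in 3 of 3 pairs at 29 °C. At 29 °C the same-numbered libraries of PIF4-/- and the wild type did not pair by the correlation rule given below. The share of all tested genes lower in 3 of 3 pairs was not determined. With the replicate number within temperature in the fit, ATHB2 and HAT1 at 22 °C and HAT2 at 29 °C had an unadjusted p under 0.05 by limma. None of them passed after adjustment (adjusted p = 0.426, 0.485 and 0.329).

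Setting BBX18-/-BBX23-/- against PIF4-/- at 29 °C, 0 of 5 genes passed, where 0.0942% of all tested genes did, with ATHB2 at 0.50 ± 0.53 (95% interval -0.61 to 1.62). The response to 29 °C of each mutant was also compared with that of the wild type. Of the 5 genes, 0 passed for BBX18-/-BBX23-/-, where 0% of all tested genes passed by limma and 133 had an unadjusted p under 0.05, and 0 passed for PIF4-/-, where 0.0157% did. For ATHB2 the response less that of the wild type was 0.30 ± 0.75 in BBX18-/-BBX23-/- (-1.28 to 1.88) and 0.33 ± 0.75 in PIF4-/- (-1.25 to 1.91), intervals that leave room for differences over 2-fold in both directions. The largest difference in size from the response of the wild type was that of HAT2 in PIF4-/-, -0.44 ± 0.41 (-1.31 to 0.44). In none of these 3 comparisons did a member have an unadjusted p under 0.05. In the order of group means, the libraries of neighbouring groups overlapped for all 5 genes.

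**Figure D2:**
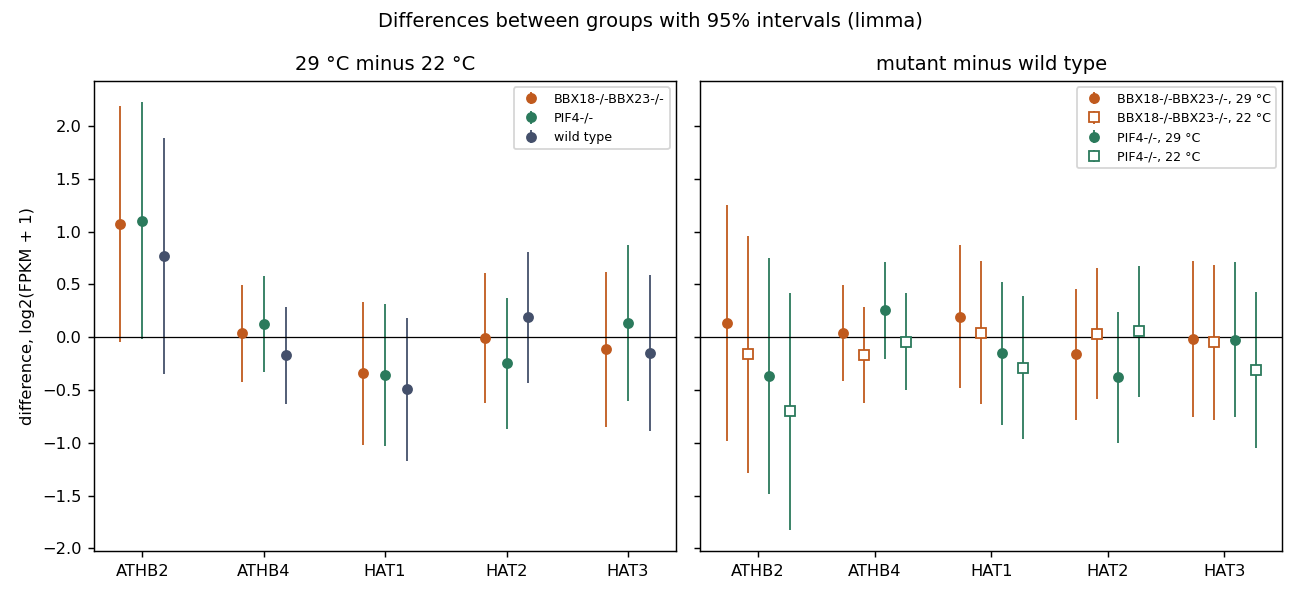
Difference of log2(FPKM + 1) with its 95% interval from limma (vertical axis) for each gene (horizontal axis), 29 °C minus 22 °C by genotype on the left and mutant minus wild type by temperature on the right. Every interval shown includes 0, and the 3 warm differences of ATHB2 sit highest.

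The larger differences lay between libraries of the same group, and they went with the replicate number. At 29 °C the replicate-2 libraries were low: HAT1 stood at 16.1, 13.2 and 11.5 FPKM in replicate 2 of BBX18-/-BBX23-/-, PIF4-/- and the wild type, against 32.5, 22.6 and 31.0 FPKM in replicate 1. HAT3 stood at 7.32, 8.62 and 6.47 FPKM in replicate 2, against 17.6, 11.8 and 20.8 FPKM in replicate 1. At 22 °C the order was the other way, with HAT2 at 18.2, 19.4 and 20.7 FPKM in replicate 2 of the same 3 genotypes, against 13.5, 13.7 and 12.9 FPKM in replicate 1. For ATHB2, HAT1, HAT2 and HAT3, replicate 1 was the highest library of all 3 groups at 29 °C and the lowest of all 3 at 22 °C. The share of all tested genes with this order was not determined, so the order is a description only.

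Differences between the numbers were tested across the 3 genotypes in a fit with the replicate number nested in temperature, which was chosen after this pattern had been seen, so its p-values describe the pattern and do not stand as independent evidence of it. The fit takes a number to mean the same in all 3 genotypes of a temperature. By the correlation rule given below, only BBX18-/-BBX23-/- with the wild type at 29 °C and PIF4-/- with the wild type at 22 °C paired. At 29 °C, replicate 2 was lower than replicate 1 by limma in ATHB2 (-1.58 ± 0.26, adjusted p = 0.000697), HAT1 (-1.02 ± 0.13, adjusted p = 6.08e-05), HAT2 (-0.77 ± 0.12, adjusted p = 0.000386) and HAT3 (-1.04 ± 0.19, adjusted p = 0.00118), which makes 4 of the 5 genes. In ATHB4 the difference was -0.27 ± 0.22 (adjusted p = 0.413). Among all tested genes 23.4% passed, 2029 upward and 2437 downward. The 4 calls held under every alternative run, each library left out included. By genotype, ATHB2 differed by -1.78 in BBX18-/-BBX23-/-, -0.67 in PIF4-/- and -2.30 in the wild type, and HAT3 by -1.16, -0.42 and -1.54; with 1 library of each number in a genotype, whether the genotypes differ in this was not tested.

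At 22 °C, replicate 2 against replicate 1 gave 0 of 5 calls by limma, where 0.0994% of all tested genes passed. An unadjusted p under 0.05 was found for 3 of the 5 genes, and for 1106 of the 19116 tested genes. All 3 stood higher in replicate 2, namely ATHB2 (0.67 ± 0.26), HAT1 (0.44 ± 0.13) and HAT2 (0.50 ± 0.12). The difference between the temperatures in this contrast was itself tested, and 4 of 5 genes passed, where 17.5% of all tested genes did. It was -2.25 ± 0.37 for ATHB2, -1.46 ± 0.18 for HAT1, -1.27 ± 0.17 for HAT2, -1.35 ± 0.26 for HAT3, with adjusted p from 0.000102 to 0.00329 by limma, and -0.17 ± 0.31 for ATHB4. The numbers did not pair libraries across temperatures, so a number at 29 °C need not match the same number at 22 °C.

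Replicate 3 against replicate 1 pointed the same ways in ATHB2, HAT1, HAT2 and HAT3, with smaller differences at 29 °C. Over all tested genes, the replicate-3 libraries of PIF4-/- and the wild type at 29 °C correlated at -0.32 in their deviations from group means. At 29 °C HAT1 (-0.50 ± 0.13), HAT2 (-0.60 ± 0.12) and HAT3 (-0.86 ± 0.19) were lower in replicate 3, which is 3 of 5 genes where 8.95% of all tested genes passed. At 22 °C ATHB2 (0.98 ± 0.26), HAT1 (0.56 ± 0.13) and HAT2 (0.67 ± 0.12) were higher in replicate 3, 3 of 5 where 6.95% passed. Several of these calls were lost when 1 library was left out, with differences of similar size. At 29 °C, HAT1 lost its call without replicate 1 or 3 of BBX18-/-BBX23-/-, replicate 3 of PIF4-/- or replicate 1 of the wild type (adjusted p from 0.0520 to 0.121, differences from -0.51 to -0.40). HAT3 lost it without replicate 1 or 3 of BBX18-/-BBX23-/- or replicate 1 of the wild type (0.0662 to 0.0706, -0.79 to -0.62). At 22 °C, ATHB2 lost it without any of the 9 libraries of that temperature except replicate 1 of PIF4-/- (0.0513 to 0.215, 0.78 to 1.20). HAT1 lost it there without replicate 1 or 3 of BBX18-/-BBX23-/- or of the wild type or replicate 3 of PIF4-/- (0.0598 to 0.131, 0.45 to 0.62), and HAT2 did so without replicate 3 of BBX18-/-BBX23-/- or of PIF4-/- (0.0533 and 0.0529, 0.61 and 0.66). With all libraries kept, ATHB2 at 22 °C also missed the threshold with size factors (0.0541), without the variance trend (0.0522) and without the filter on low values (0.0854). Fitted on the 29 °C libraries alone, HAT1 (0.0813) and HAT3 (0.0615) missed it at that temperature.

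**Figure D3:**
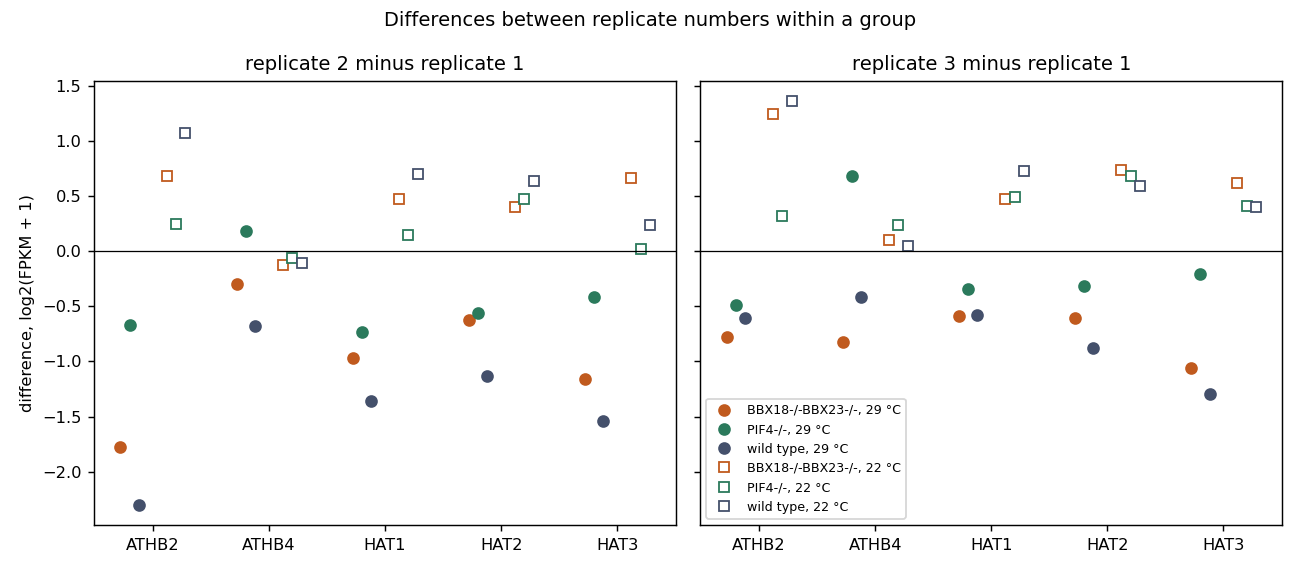
Difference of log2(FPKM + 1) between libraries of the same group (vertical axis) for each gene (horizontal axis), replicate 2 minus replicate 1 on the left and replicate 3 minus replicate 1 on the right, with filled circles for 29 °C and open squares for 22 °C. For ATHB2, HAT1, HAT2 and HAT3 every filled circle lies below 0 and every open square above it, and ATHB4 shows no such split. The share of all tested genes with that split was not determined.

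Other genes moved with the replicate number at 29 °C, where 23.4% of all tested genes passed in replicate 2 against replicate 1. Of 7 clock genes, 6 were higher and 1 lower in replicate 2 than in replicate 1 (median difference 0.73, against -0.01 over all tested genes). PRR9, a repressor of the morning loop of the clock, stood at 12.1, 13.6 and 9.84 FPKM in replicate 2 of BBX18-/-BBX23-/-, PIF4-/- and the wild type, against 0.134, 0.253 and 0.041 FPKM in replicate 1 (3.48 ± 0.21, adjusted p = 1.38e-07 by limma). GI, which acts in the clock and in flowering, stood at 8.55, 13.9 and 13.2 FPKM in replicate 2, against 1.37, 1.21 and 1.65 FPKM in replicate 1 (2.39 ± 0.19, adjusted p = 1.5e-06). Replicate 3 lay between them for both genes in all 3 genotypes. The labels do not say what a replicate number stands for, and the part that time of day, light or handling at collection had in these differences was not tested.

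Of 14 tested genes of a shade avoidance list, 6 were lower and 2 higher in replicate 2 at 29 °C, with a median difference of -0.50. The share of all tested genes that passed, for this list and those below, was 23.4%. IAA29, an Aux/IAA repressor induced by shade, stood at 0.516, 0.316 and 0.380 FPKM in replicate 2 of BBX18-/-BBX23-/-, PIF4-/- and the wild type, against 8.65, 1.29 and 8.92 FPKM in replicate 1 (-2.10 ± 0.31). PAR1, an atypical helix-loop-helix protein that restrains shade growth, differed by -2.11 ± 0.21, PKS4, a phytochrome kinase substrate protein, by -2.04 ± 0.11, and YUC9, an auxin synthesis enzyme, by -1.01 ± 0.13, with adjusted p from 6.81e-08 to 0.000284 for the 4 genes by limma. HY5, a factor that promotes photomorphogenesis, went the other way (2.15 ± 0.15), and of 15 light and PIF regulators 4 were higher and 4 lower. PIF4 itself differed by 0.01 ± 0.11. Among root markers, 2 of 5 tested were higher in replicate 2 and 0 lower, with the summed level of the 6 between 40.2 and 76.1 FPKM in the 29 °C libraries and between 47.9 and 64.6 FPKM in the 22 °C libraries and none of the 6 at 0 in a whole group; their part was not tested.

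The spread of each gene over the 18 libraries was divided into shares of the sum of squares of log2(FPKM + 1). The replicate number within temperature took 81.3% for HAT2, 75.1% for HAT3, 61.7% for HAT1 and 43.9% for ATHB2, but 17.7% for ATHB4, against a mean of 31.5% over all tested genes. The share of HAT2 was above that of 98.1% of tested genes, that of HAT3 above 96.5% that of HAT1 above 90.1%, that of ATHB2 above 73.5% and that of ATHB4 above 31.1%. Temperature took 35.9% for ATHB2 and 21.1% for HAT1, and 0.3% or less for the other 3, against a mean of 28.8%. Genotype within temperature took 5.7% to 14.5%, against a mean of 12.9%. For ATHB4, the gene with the fewest reads, 67.7% was left to the rest.

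**Figure D4:**
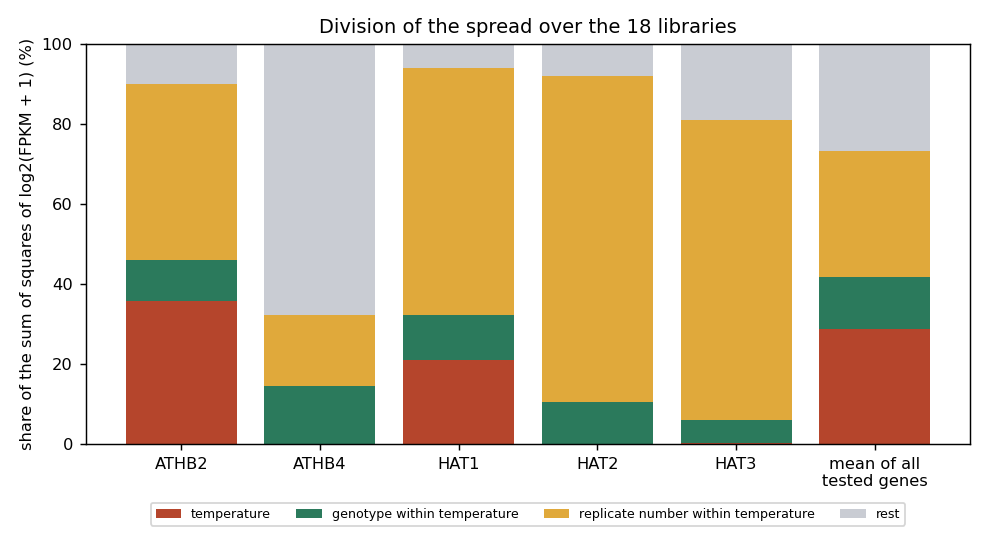
Shares in percent of the sum of squares of log2(FPKM + 1) over the 18 libraries (vertical axis) for each gene and for the mean of all tested genes (horizontal axis), split into temperature, genotype within temperature, replicate number within temperature and the rest. The replicate number takes the largest share for HAT1, HAT2, HAT3 and ATHB2, with 81.3% for HAT2.

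The summed level of the 5 genes followed the replicate number as well, with 110.7 FPKM in wild-type replicate 1, 37.6 in replicate 2 and 62.5 in replicate 3 at 29 °C, against 48.0, 75.0 and 78.7 FPKM at 22 °C. The make-up of that sum moved with temperature. ATHB2 held 13.4% to 23.8% of the sum in BBX18-/-BBX23-/- at 29 °C, against 6.5% to 11.4% at 22 °C. It held 15% to 17.7% in PIF4-/- at 29 °C, against 5.9% to 6.8% at 22 °C, and 10.8% to 24.4% in the wild type at 29 °C, against 6.7% to 12.5% at 22 °C. The libraries of the temperatures overlapped only in the wild type. HAT1 held 32.2% to 35.9% in BBX18-/-BBX23-/-, 30.4% to 33.8% in PIF4-/- and 28.0% to 32.8% in the wild type at 29 °C, against 40.4% to 46.3%, 39.3% to 41.9% and 41.1% to 43.6% at 22 °C. Every 29 °C library was thus below every 22 °C library in the share of HAT1, including the replicate-1 libraries at 29 °C, whose HAT1 level was the highest of their groups. These shares were computed after the levels had been seen and are given as a description without a test; a share of a sum shows unequal change among the 5 genes and not which of them changed.

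**Figure D5:**
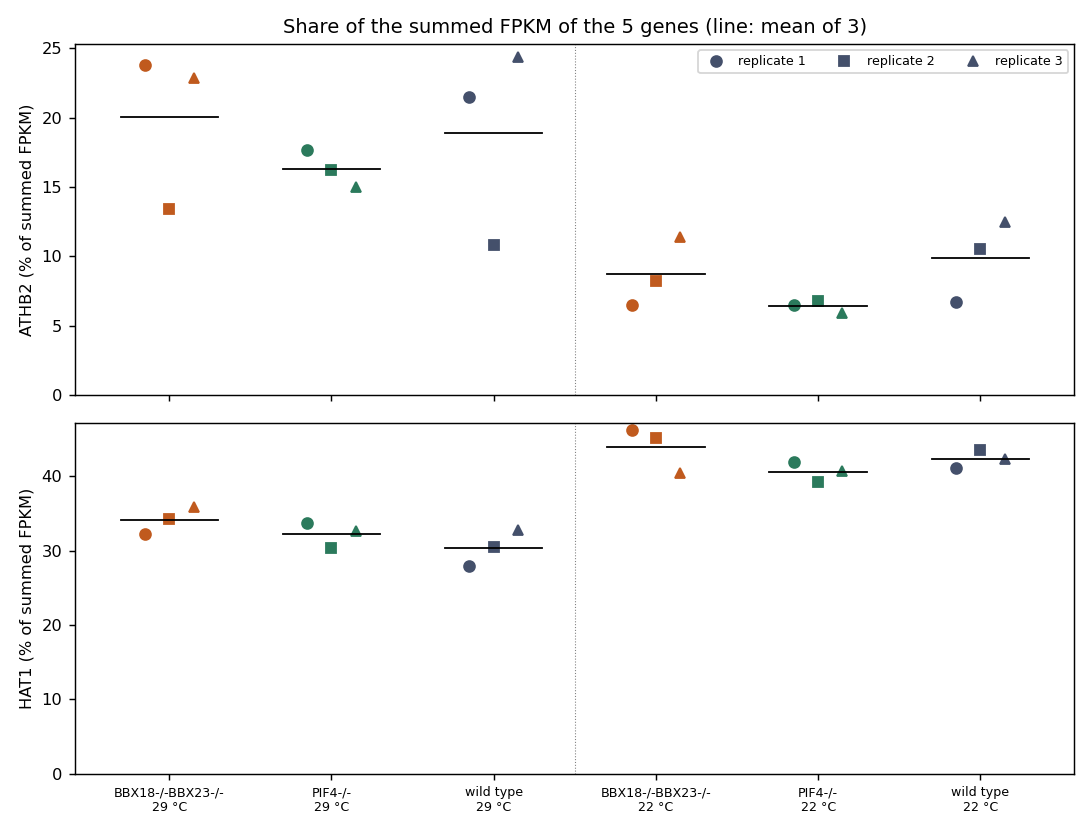
Share in percent of the summed FPKM of the 5 genes (vertical axes) that ATHB2 (top) and HAT1 (bottom) held in each library, by group along the horizontal axis, with the line at the mean of 3. HAT1 lies at 28.0% to 35.9% in the 29 °C libraries and at 39.3% to 46.3% in the 22 °C libraries, without overlap.

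Of the other 5 HD-ZIP II genes, HAT22 had the highest mean of the whole class, 35.4 FPKM over the 18 libraries, with HAT9 at 6.49, ATHB17 at 5.22, HAT14 at 3.03 and ATHB18 at 0.67 FPKM, the last too low to be tested and listed at 0 in 1 library. By limma, 0 of these 4 tested genes passed in the response to 29 °C of any genotype, where 13.2% to 14.2% of all tested genes did. In replicate 2 against replicate 1 at 29 °C, 2 of the 4 passed, where 23.4% of all tested genes did, and both were higher. HAT22 stood at 37.3, 39.6 and 35.3 FPKM in replicate 2 of BBX18-/-BBX23-/-, PIF4-/- and the wild type, against 27.1, 25.4 and 21.4 FPKM in replicate 1 (0.58 ± 0.13, adjusted p = 0.00511), and HAT9 differed by 0.38 ± 0.11 (adjusted p = 0.0276). The shade avoidance members made up 45.9%, 42.9% and 42.1% of the FPKM of all 10 class II genes in replicate 2 of those groups, against 70.8%, 63.9% and 75.7% in replicate 1.

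Genes of the same pathways were read beside them, from lists chosen with earlier results of these data known. Of the 14 tested shade avoidance genes, 4 rose and 0 fell at 29 °C in BBX18-/-BBX23-/-, 1 rose and 0 fell in PIF4-/-, and 5 rose and 0 fell in the wild type (median differences 0.47, 0.20 and 0.61, against 0.00, -0.03 and -0.01 over all tested genes). The shares of all tested genes that passed were 13.6%, 13.2% and 14.2% in the same order. XTH15, a wall-loosening xyloglucan endotransglucosylase, rose by 2.01 ± 0.25 in the wild type and IAA19, an Aux/IAA repressor, by 1.13 ± 0.16, with adjusted p of 5.94e-05 and 0.000135 by limma. In PIF4-/- their differences were 0.39 ± 0.25 and -0.10 ± 0.16, while BEE1, a helix-loop-helix growth factor, rose by 1.40 ± 0.31 there and by 1.43 ± 0.31 in the wild type. IAA19 was lower in PIF4-/- than in the wild type at 29 °C, the 1 shade avoidance gene of 14 that passed, where 0.136% of all tested genes did. But in the difference of warm responses of PIF4-/- and the wild type 0 of the 14 passed, where 0.0157% of all tested genes did. PIL1, a shade marker of the same list, ran from 0.057 to 1.69 FPKM and was too low to be tested.

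The HD-ZIP III factors and their ZPR partners, with which HAT3 and ATHB4 act in leaf polarity, gave 1 call among 9 genes in the wild type at 29 °C, where ZPR3, a small leucine zipper protein that binds HD-ZIP III factors, rose by 1.07 ± 0.30 (adjusted p = 0.0242 by limma). In either mutant 0 of the 9 passed, and all 3 counts stand against the 14.2% of all tested genes that passed in the wild type, 13.6% in BBX18-/-BBX23-/- and 13.2% in PIF4-/-. Of 7 further leaf polarity genes, 1 rose and 1 fell in BBX18-/-BBX23-/-, 0 passed in PIF4-/- and 1 fell in the wild type. Of 13 auxin response genes, 1 rose in BBX18-/-BBX23-/-, 0 passed in PIF4-/- and 3 rose in the wild type. Whether the counts of these 3 lists differ from the shares over all tested genes was not tested.

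Genes with the most similar course over the 18 libraries were found by the root-mean-square difference of log2(FPKM + 1) values, each centred on its own mean, over 19111 other genes. HAT2 lay nearest to BEH2 (0.139), a factor of the brassinosteroid-responsive BES1 family, and IBH1 (0.172), an atypical helix-loop-helix growth repressor, where the median over all genes was 0.417. HAT3 lay nearest to AT1G51550 (0.172) and LSD1 (0.175), and HAT1 to AT1G67590 (0.172) and AT4G38480 (0.193). ATHB2 had more distant neighbours, the ethylene synthesis gene ACS8 (0.383), HGO (0.400) and SPL3 (0.424), against a median of 0.85. ATHB4 lay nearest to AT5G19170 (0.159), against a median of 0.346. These distances grow with a gene's own spread, so they cannot be ranked between members. The root mean square of a member around its own mean was 0.819 for ATHB2, 0.433 for HAT1, 0.403 for HAT3, 0.342 for HAT2 and 0.245 for ATHB4. Among the 5 genes themselves HAT2 and HAT3 were closest (0.232), followed by HAT1 and HAT3 (0.273) and HAT1 and HAT2 (0.284), while ATHB4 and HAT3, a pair closer in sequence than HAT2 and HAT3, lay 0.342 apart and ATHB2 lay at least 0.655 from each of the others.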

How the data were processed

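Seedling RNA was isolated with Trizol and sequenced from TruSeq libraries, per the labels' protocols. The authors deposited 1 table of gene FPKM (the unit per the labels) with a column for each of the 18 libraries; 0 columns lacked a sample. The submitters' processing notes name Bowtie 0.12.2 and the build mm8. That build is of the mouse and the rows are Arabidopsis loci, which leaves genome, annotation and counter not given in the sources used here. FPKM carry the authors' scaling by length and library, so compositional shifts between libraries can move every gene.

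From them log2(FPKM + 1) was computed, and the 19116 genes that reached 1 FPKM in 3 or more libraries were fitted with limma 3.58.1 in R 4.3.3 (trended empirical Bayes, 2-sided, Benjamini-Hochberg adjustment over all tested genes per contrast at 0.05), with a coefficient for each of the 6 groups, in 10 contrasts. A further fit with replicate number nested in temperature, in 5 contrasts, was added after the data were seen. The members and lists were chosen with earlier results of these data known. The rule for naming genes takes the 5 members, the other HD-ZIP II genes, the 3 targeted genes, up to 4 called genes of smallest p per list and contrast, clock genes that move with replicate number, and the 3 genes most like each member; names were left out for length. PIF4 in the replicate contrast, IAA19, XTH15 and BEE1 in PIF4-/-, and PIL1 were named after their values were seen.

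Same-numbered libraries were taken to pair where every correlation of their deviations from group means exceeded 0.1. This held for BBX18-/-BBX23-/- with the wild type at 29 °C (0.70, 0.73 and 0.24) and for PIF4-/- with the wild type at 22 °C (0.50, 0.49 and 0.60). It did not hold for PIF4-/- with the wild type at 29 °C (0.47, 0.69 and -0.32). Nor did it hold for BBX18-/-BBX23-/- with the wild type at 22 °C (0.13, -0.06 and 0.56). Between BBX18-/-BBX23-/- and PIF4-/- it held neither at 29 °C (0.69, 0.78 and 0.05) nor at 22 °C (0.23, 0.01 and 0.52). The pairing comes from the data, not from the labels. The fit was tested on simulated data with independent noise in each library. That test cannot show how the fit behaves where same-numbered libraries share differences. Names, gene models and sequences came from TAIR10.1, where 32835 of 33602 identifiers were found, and transcripts were compared with blastn 2.17.0. Plots were made in Python 3.11.15 with matplotlib 3.10.9.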

Additional observations from a re-analysis of the deposited data

Results flagged for a closer look

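The difference between replicate 2 and replicate 1 was not the same at 29 °C and at 22 °C in 4 of the 5 genes, by a test of the difference itself (limma, replicate number nested in temperature, adjusted over all tested genes). The difference at 29 °C less that at 22 °C was -2.25 ± 0.37 for ATHB2 (log2, SE, adjusted p = 0.00102), -1.46 ± 0.18 for HAT1 (adjusted p = 0.000102), -1.27 ± 0.17 for HAT2 (adjusted p = 0.000182) and -1.35 ± 0.26 for HAT3 (adjusted p = 0.00329). The direction was the same in 3 of 3 genotypes for each of the 4 genes, and the share of all tested genes with 1 direction in 3 of 3 was not determined. The contrast was chosen after the pattern had been seen, and 17.5% of all tested genes passed in it. Within a temperature, not all genotypes paired by number. The numbers did not pair libraries across temperatures, so a number at 29 °C need not match the same number at 22 °C.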

How the results depend on the processing

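The group contrasts rest on 3 libraries per group, and FPKM without read counts give no counting error. With size factors, without the variance trend, without a filter on low values, with a pseudocount of 0.1, and with each library left out, 0 of the 5 genes passed in each of the 10 group contrasts, as with all libraries. Fitted on the libraries compared alone, 1 gene passed in the response of PIF4-/- to 29 °C (ATHB2). A replicate block by number changed no call of a member: 0 passed with it in each of the 10. A replicate block within temperature, which takes differences between numbers out of the error, gave 1 call in BBX18-/-BBX23-/- (ATHB2, adjusted p = 0.0101), 1 in PIF4-/- (ATHB2, 0.00868) and 2 in the wild type (ATHB2, 0.0482, and HAT1, -0.49, 0.0118) for 29 °C against 22 °C. The numbers did not pair libraries across temperatures, so the p-values of that block can be too small for a difference between temperatures. Without the 3 replicate-2 libraries at 29 °C, 1 gene passed in BBX18-/-BBX23-/- and 1 in the wild type. Without the 3 replicate-1 libraries at 29 °C, no gene of the 5 passed in either. Replicate 3 against replicate 1 gave 1 to 3 calls at 29 °C and 0 to 3 at 22 °C with 1 library left out, and 1 at 29 °C with the libraries of that temperature alone. Of 1330 values of members under alternatives, 27 lost a call, 8 gained one and 0 called values reversed; 96 that passed in neither setting changed sign, none larger than 0.37 with all libraries.

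Counts over all genes moved more. With the replicate block within temperature 4786, 4621 and 4731 genes passed for 29 °C against 22 °C in BBX18-/-BBX23-/-, PIF4-/- and the wild type, against 2596, 2515 and 2711. With the libraries compared alone 1096 passed in PIF4-/- and 1289 in the wild type, and leaving out the replicate-1 or replicate-2 libraries at 22 °C gave 1251 to 1588. For replicate 3 against replicate 1 at 22 °C, 1328 fell to between 234 and 487 without any 1 of 6 libraries (replicates 1 and 3 of each genotype), and at 29 °C 1711 fell to 1039, 1066 and 1100 without replicate 1 or 3 of BBX18-/-BBX23-/- or replicate 1 of PIF4-/- and to 883 with that temperature alone. Leaving out replicate 2 at 22 °C, or replicate 3 at 29 °C, of BBX18-/-BBX23-/- gave 1550 and 1519 for its response, and leaving out replicate 1 or 2 of PIF4-/- at 22 °C gave 1524 and 1666 for that of PIF4-/-. The few calls between genotypes moved as well. For PIF4-/- against the wild type they ran from 6 to 47 at 29 °C (26 with all libraries) and from 3 to 13 at 22 °C (4), for BBX18-/-BBX23-/- against the wild type from 0 to 4 at 29 °C (3) and from 1 to 7 at 22 °C (5), for BBX18-/-BBX23-/- against PIF4-/- at 29 °C from 1 to 27 (18), and for the difference of responses of PIF4-/- from 0 to 8 (3). Replicate 2 against replicate 1 at 22 °C gave 3 to 41 (19). The cause was not tested.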
